A study of Mus musculus with 6 samples.

Results

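The regions described here carried H3K27ac calls under every treatment of A9 cells and were called over at least 2 times as many base pairs with curcuphenol, and also with IFN-γ, as with DMSO. The 3 lists of called regions were merged wherever they overlapped by at least 1 bp, and merged regions found in all 3 lists and spanning under 10 kb were kept. There were 70818 merged regions, of which 27236 were common to the 3 lists and under 10 kb, and 1370 of these passed the 2-fold limit with both treatments (members below). Members were thus chosen by the measured widths themselves, so their widths and ratios are given as a description. A9 is a metastatic subline of the mouse tumour line TC1, which was made from lung cells with papillomavirus and Ras oncogenes. All cells were cultured for 48 h, with 1% DMSO alone, with curcuphenol (0.00167 µmol), a phenolic compound of marine sponges and plants, or with the cytokine IFN-γ. DMSO was the vehicle of both agents. There was 1 H3K27ac library with its input per treatment, so there is no replicate check and no test between treatments was possible. Shares of regions are followed in parentheses by exact Clopper-Pearson 95% intervals. Intervals after median percentages come from order statistics, and those after matches per kb are exact Poisson limits, both at 95%. All of these intervals cover counting error only.

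H3K27ac is the acetylation of lysine 27 of histone H3, which is written by the acetyltransferases p300 and CBP and removed by histone deacetylases. It marks nucleosomes at active promoters and at enhancers, the distal elements bound by factors such as AP-1, the dimers of JUN and FOS proteins. IFN-γ acts through JAK kinases on genes with gamma-activated sequence (GAS) elements, and then through interferon regulatory factors (IRFs). The deposited values are positions of called regions without scores or read counts. The width of a call rests on the calling threshold and on read depth besides the acetylation itself, and the depth of these libraries is unknown, so widths are not levels of acetylation.

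The DMSO and curcuphenol lists were of similar extent, and the IFN-γ list was larger. The DMSO list held 47899 regions (69.8 Mb), the curcuphenol list 48763 (70.3 Mb) and the IFN-γ list 55622 (81.1 Mb). Called regions covered the transcription start site (TSS) of 10 of 13 mesenchymal marker genes in each list (among them Vim, Zeb1 and Snai2) and of 0 of 13 epithelial and lung markers, although the cells are of lung origin. The TSS of 1 of 11 leukocyte markers (Cd68) was covered in each list, and that of 1 of 8 endothelial markers (Flt1) with DMSO and with IFN-γ.

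Of the 14 motifs searched, AP-1 had the largest excess in members over all common regions in percentage points, and the sequences that follow show it in place. Each is the 200 bp around the centre of a member on the plus strand of mm10, with capitals marking motif matches on either strand. Trp53inp1 lies at chr4:11148194-11148393, Ptpn1 at chr2:167961221-167961420 and Timp3 at chr10:86307258-86307457, and DMSO called 0 bp of these 3 windows. Psmg4 lies at chr13:34192846-34193045, where 129 bp were called with DMSO, and Pparg at chr6:115318871-115319070, where all 200 bp were. These 5 windows hold AP-1 matches (TGANTCA), of which Pparg has 2, and Timp3 also holds a C/EBP match (TTGCNNCAA). Il33 lies at chr19:29940995-29941194 (90 bp called with DMSO) and is shown for its GAS match (TTCNNNGAA) and an antioxidant response element (ARE, TGACNNNGC).
Trp53inp1: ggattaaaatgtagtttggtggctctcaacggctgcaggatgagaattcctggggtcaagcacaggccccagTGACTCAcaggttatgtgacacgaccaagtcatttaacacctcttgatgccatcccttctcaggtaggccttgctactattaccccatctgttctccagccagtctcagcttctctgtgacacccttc
Ptpn1: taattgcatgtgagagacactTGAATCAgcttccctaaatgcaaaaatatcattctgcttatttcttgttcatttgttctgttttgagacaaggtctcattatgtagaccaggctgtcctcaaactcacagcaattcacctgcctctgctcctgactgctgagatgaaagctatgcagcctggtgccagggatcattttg
Timp3: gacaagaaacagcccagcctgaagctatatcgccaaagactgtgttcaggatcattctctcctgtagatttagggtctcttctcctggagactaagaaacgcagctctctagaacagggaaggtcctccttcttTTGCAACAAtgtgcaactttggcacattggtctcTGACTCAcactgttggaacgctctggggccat
Psmg4: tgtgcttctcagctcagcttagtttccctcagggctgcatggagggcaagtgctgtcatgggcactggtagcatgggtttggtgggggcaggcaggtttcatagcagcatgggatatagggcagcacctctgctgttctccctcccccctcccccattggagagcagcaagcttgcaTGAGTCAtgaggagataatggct
Pparg: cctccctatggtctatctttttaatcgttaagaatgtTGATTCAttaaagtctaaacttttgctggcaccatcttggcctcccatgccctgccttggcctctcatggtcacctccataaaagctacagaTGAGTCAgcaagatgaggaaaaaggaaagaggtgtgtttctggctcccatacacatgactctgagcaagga
Il33: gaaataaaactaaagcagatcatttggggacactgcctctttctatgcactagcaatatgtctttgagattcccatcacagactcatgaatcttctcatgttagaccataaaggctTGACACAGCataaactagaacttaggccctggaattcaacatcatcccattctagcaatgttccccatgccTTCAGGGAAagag
In windows of this length, an AP-1 match was found in 23.6% of members (21.4 to 26.0) and in 15.7% of all common regions (15.3 to 16.2). A GAS match was found in 6.86% (5.58 to 8.33) and 5.84% (5.56 to 6.12) of them, with overlapping intervals. Matches describe the letters only and do not show that a factor was bound.

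Members were narrow calls with DMSO. With DMSO their median called width was 396 bp (quartiles 301 and 597), which became 1703 bp (1207 and 2326) with curcuphenol and 1387 bp (1028 and 1898) with IFN-γ. Over all common regions the medians were 1669, 1589 and 1802 bp in the same order, so that members were near the common median with curcuphenol, below it with IFN-γ and far below it with DMSO. The median ratio to DMSO in members was 3.53 with curcuphenol (range 2 to 18.1) and 2.99 with IFN-γ (2 to 16.7). Both ratios reached 3 in 527 members, 5 in 100 and 10 in 4. The curcuphenol call was the wider of the treated calls in 66.6% of members (64.1 to 69.1), against 36.0% of all common regions (35.5 to 36.6).

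As background, 10.1% of the 27236 common regions reached 2 times DMSO with curcuphenol, 8.84% did so with IFN-γ, and 5.03% did so with both. The reverse pattern, with DMSO at least 2 times as wide as each treatment, was seen in 575 regions (2.11%). The DMSO list was not alone in being the narrow list at some regions. In 2018 common regions (7.41%) curcuphenol was the narrow list, with DMSO and IFN-γ both at least 2 times as wide, and in 390 (1.43%) IFN-γ was. Each treatment is compared with the same DMSO library, so a DMSO call that was narrow for any reason raises both ratios together, and the part of this in the 1370 was not tested.

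**Figure D1:**
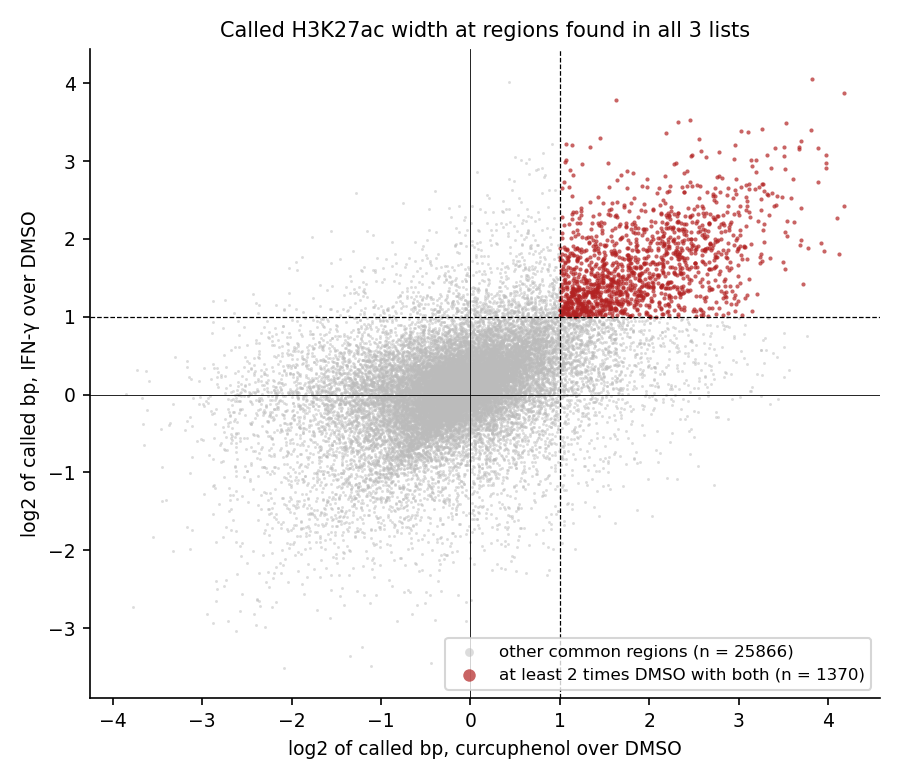
Log2 of the called base pairs with curcuphenol over DMSO (x axis) and with IFN-γ over DMSO (y axis), 1 point for each of 27236 common regions under 10 kb. The 1370 members (red) fill the corner beyond both dashed lines at 2-fold, and more of them lie right of the diagonal, wider with curcuphenol than with IFN-γ (66.6%).

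The narrower the DMSO call, the more often a region was a member. Membership held for 50.1% of the 663 common regions called over less than 300 bp with DMSO (46.2 to 53.9) and for 24.4% of those with at least 400 and under 500 bp (21.5 to 27.4). It fell to 4.35% from 750 to under 1000 bp (3.52 to 5.31) and to 4 of 6964 regions (0.0574%) at 2500 bp and more. The DMSO width is the denominator of both ratios, so this gradient belongs in part to the rule. Short DMSO calls made up most members: 1257 of 1370 (91.8%) had under 1000 bp with DMSO, against 5480 of the 25866 other common regions.

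**Figure D2:**
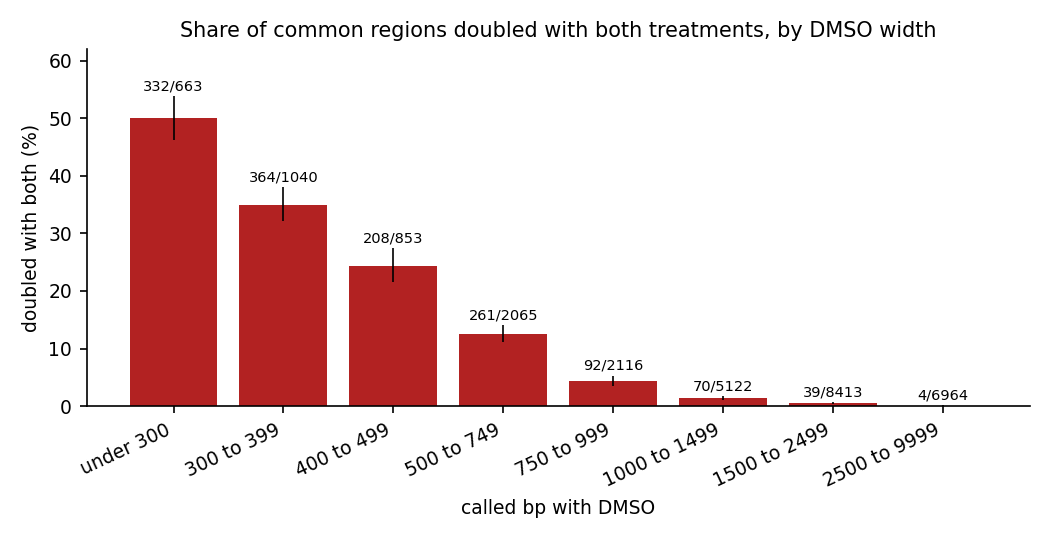
Share of common regions that were members (y axis, percent, with exact 95% intervals) in bins of base pairs called with DMSO (x axis), with the number of members over the number of regions above each bar. The share falls from 50.1% under 300 bp to 0.0574% at 2500 bp and more.

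The newly called base pairs lay around the DMSO call and were shared in part between the agents. In 70.6% of members (68.1 to 73.0) no base pair called with DMSO was lost with either treatment. This share was 32.9% in the 1384 regions that doubled with curcuphenol only, 28.5% in the 1037 that doubled with IFN-γ only and 15.5% of all common regions, and since the rule chose short DMSO calls inside wide treated calls, it is given as a description. Calls reached past both ends of the DMSO call in 87.4% of members with curcuphenol (85.6 to 89.2) and in 85.6% with IFN-γ (83.6 to 87.4). The longer extension was on the same side with both agents in 83.8% (81.7 to 85.7), a share that an off-centre DMSO call raises because both extensions are measured from it. Of the base pairs newly called with either agent, a median of 61.2% was new with both (59.2 to 62.6). That median was 27.3% in the regions doubled with curcuphenol only and 20.5% in those doubled with IFN-γ only, a difference that the rule favours because members have large gains with each agent. A single called region in each list was found in 69.3% of members (66.8 to 71.8) and in 72.5% of all common regions (71.9 to 73.0). In 63.4% of members (60.8 to 66.0) the centre of the merged region was outside the DMSO call, as it was in 46.5% of the regions doubled with curcuphenol only, 43.1% of those doubled with IFN-γ only and 10.3% of all common regions. Short calls miss the centre more often, and the median offset of the DMSO call from the centre was alike in the 3 doubled groups, at 33.0%, 32.1% and 32.4% of the distance from centre to edge. In 17 members (1.24%) the curcuphenol call did not touch the DMSO call, against 0.356% of all common regions. In 19 members (1.39%) the IFN-γ call did not, against 0.532%. The other list joined the calls in these regions.

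**Figure D3:**
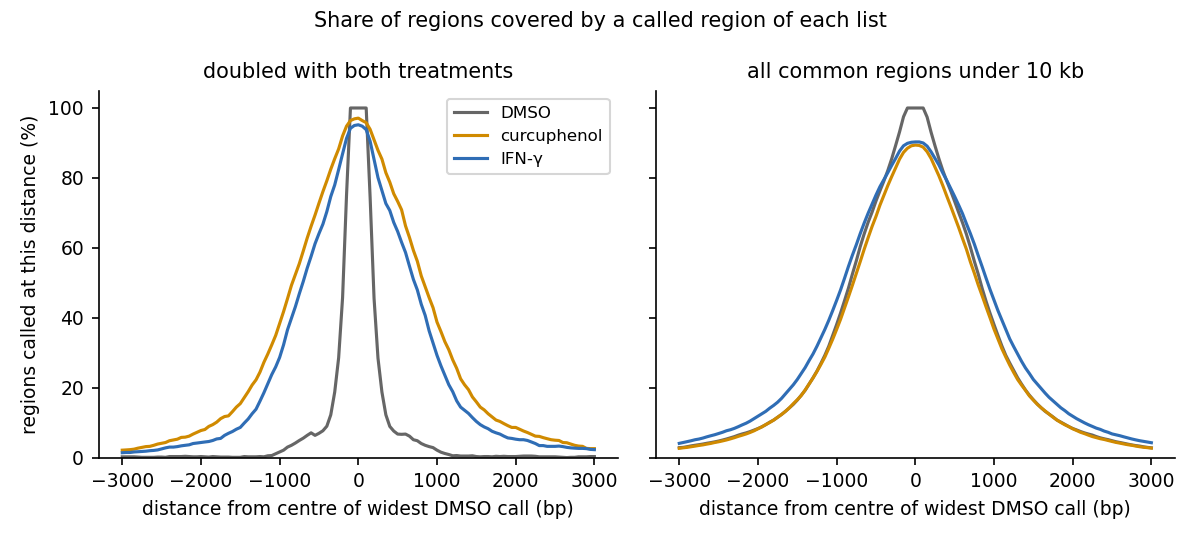
Share of regions called with DMSO (grey), curcuphenol (orange) and IFN-γ (blue) on the y axis against the distance in bp from the centre of the widest DMSO call, for members (left) and all common regions under 10 kb (right). Distances run toward higher coordinates, without regard to strand. At +500 bp 6.79% of members were called in the DMSO list, 73.3% in the curcuphenol list and 64.7% in the IFN-γ list. Over all common regions the 3 curves run close together (73.3%, 68.9% and 74.7%).

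Members lay away from promoters. Their centres were in introns in 53.4% of cases and in intergenic sequence in 38.2%, together 91.6% (90.0 to 93.0) against 76.8% of all common regions (76.3 to 77.3). Promoters, taken as the 1000 bp before a TSS and the 100 bp after it, held 38 members (2.77%, 1.97 to 3.79) against 14.5% of common regions (14.0 to 14.9). The median distance from a member's centre to a TSS was 20377 bp, against 10464 bp. Other width changes were distal as well: promoters held 4.70% (3.64 to 5.95) of the regions doubled with curcuphenol only, 5.40% (4.10 to 6.96) of those doubled with IFN-γ only and 4.35% (2.83 to 6.35) of those with DMSO as the wide list. The gap was smaller at like DMSO width. With under 300 bp called with DMSO the promoter share was 2.11% in members and 4.52% in all common regions, with at least 400 and under 500 bp it was 2.88% and 6.92%, and from 500 to under 750 bp 4.60% and 10.3%. The GC content of the 500 bp around the centre was 47.2% in members (median, 46.8 to 47.6) and 48.2% over all common regions. In the regions with DMSO as the wide list it was 39.8% (39.2 to 40.2), and their median distance to a TSS was 45111 bp, so the groups at opposite ends of the width change differed in base composition and position. By chromosome, members were between 2.96% (X) and 5.91% (12) of the common regions, leaving out Y with 1 of 5.

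AP-1 matches within 500 bp windows were found in 45.5% of members (42.9 to 48.2) and in 32.5% of all common regions (32.0 to 33.1). The gap was smaller among regions in introns or intergenic sequence, where the shares were 46.9% (44.1 to 49.7) and 38.0% (37.3 to 38.6 in the 19670 others). With under 500 bp called with DMSO as well, they were 48.6% (45.2 to 52.1) in 835 members and 30.8% (28.4 to 33.3) in 1386 others, which had a median merged width of 778 bp against 1672 bp. At a merged width of 1400 to 2600 bp they were 53.8% (50 to 57.6) in 678 members and 47.1% (46.0 to 48.2) in 7856 others, so the gap was smaller where merged widths were alike. An AP-1 match was as common where the change went the other way. The share was 48.7% (44.5 to 52.9) in regions with DMSO as the wide list, 42.1% (39.4 to 44.7) in those doubled with curcuphenol only and 32.4% (29.6 to 35.3) in those doubled with IFN-γ only. The match is therefore not particular to the members. Within members, AP-1 matches numbered 0.816 per kb (0.767 to 0.867) in the base pairs new with both agents and 0.544 per kb (0.491 to 0.601) in those called with DMSO, at GC contents of 48.1% and 47.9%. The order was the same in regions doubled with IFN-γ only, with 0.743 per kb new with both and 0.580 called with DMSO, and the opposite in those doubled with curcuphenol only, with 0.626 and 0.701.

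Elements of the interferon pathway were about as frequent in members as in all common regions. IRF matches (GAAANNGAA) were found in 15.5% of members (13.7 to 17.6) and 15.7% of all common regions (15.3 to 16.2), compared with 19.5% (17.1 to 22) of the regions doubled with IFN-γ only and 23.5% (20.1 to 27.2) of those with DMSO as the wide list. GAS matches were found in 16.7% (14.8 to 18.8) and 14.6% (14.2 to 15.0), and NF-κB matches (GGGANTTCC) in 2.92% (2.09 to 3.95) and 2.55% (2.36 to 2.74). The antioxidant response element, bound by NFE2L2, was found in 26.5% of members (24.2 to 28.9) and 22.3% of common regions (21.8 to 22.8). Its letters can overlap those of an AP-1 match. The promoter motifs were fewer: GC boxes (GGGCGG), bound by SP and KLF factors, were found in 11.5% of members (9.82 to 13.3) against 26.5% of common regions (26.0 to 27), and ETS motifs (CCGGAAGT) in 0.949% (0.506 to 1.62) against 2.63% (2.45 to 2.83). Among regions in introns or intergenic sequence, members were nearer to those doubled with curcuphenol only in some features and to those doubled with IFN-γ only in others. There the antioxidant element was found in 26.9% of members, 26.2% of regions doubled with curcuphenol only and 20.8% of those doubled with IFN-γ only. In the same order, GC boxes were found in 9.24%, 9.66% and 12.4%, and ETS motifs in 0.797%, 1.04% and 0.671%. GC boxes were fewest, at 6.53%, in the regions with DMSO as the wide list.

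**Figure D4:**
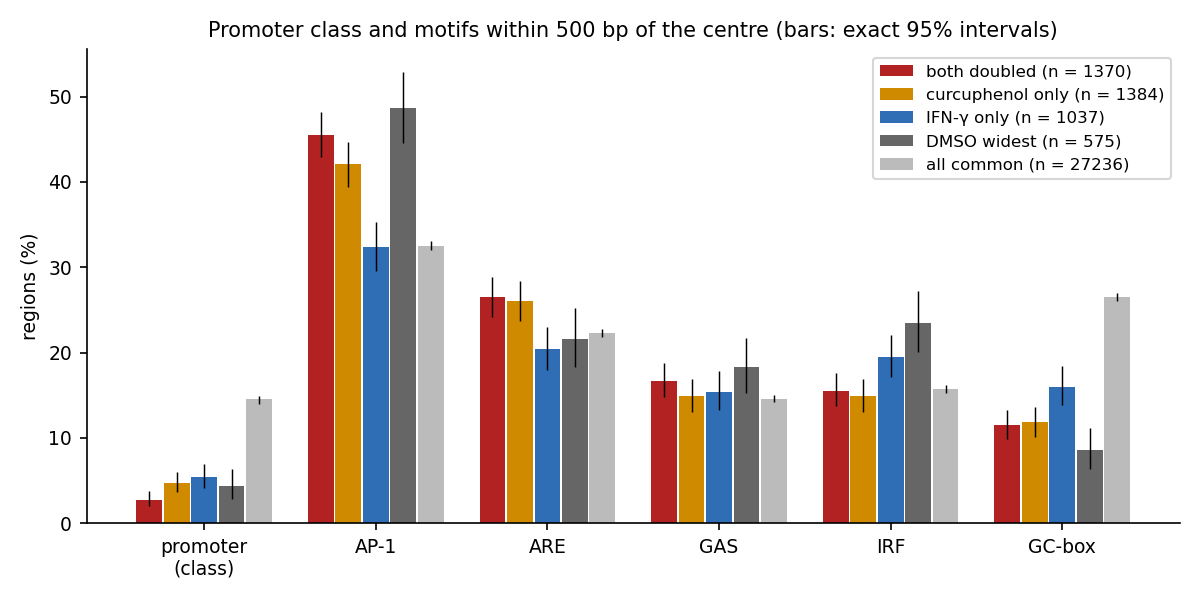
Share of regions (y axis, percent, exact 95% intervals) centred at a promoter or holding a motif in the 500 bp around the centre, for members (red), regions doubled with 1 treatment only (orange and blue), regions with DMSO at least 2 times both treatments (dark grey) and all common regions (light grey). Members have the lowest promoter share (2.77%), but its interval overlaps those of the regions doubled with curcuphenol only and with DMSO as the wide list. AP-1 matches are about as frequent in members (45.5%) as in the regions with DMSO as the wide list (48.7%).

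The largest proportional gain with both agents was at Ccl5, which encodes a chemokine that attracts T cells and monocytes. The member (chr11:83527120-83532449) was called over 243 bp with DMSO. It reached 4386 bp with curcuphenol and 3549 bp under IFN-γ. The DMSO call lay upstream of the TSS, which was within both treated calls, and the centre of the merged region was in an intron. At N4bp1, an inhibitor of NF-κB signalling, an intronic member (chr8:86870195-86875245) was called over 263, 3697 and 4381 bp with DMSO, curcuphenol and IFN-γ. A member in an intron of Frmd6, a FERM protein linked to the Hippo pathway, had the TSS of Actr10 as the nearest (chr12:70895928-70898574; 230, 2647 and 2574 bp). It had the most similar treated calls of these, with 97.0% of its new base pairs shared.

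Of the 10 members with the largest smaller ratio, 3 lay in intergenic sequence. Upstream of Trp53inp1, a target of p53 that promotes autophagy and cell death, 236, 3295 and 2499 bp were called under DMSO, curcuphenol and IFN-γ (chr4:11146625-11149962). Near Bnip3l, a receptor that directs mitochondria to autophagy, the calls were 265, 2803 and 2380 bp (chr14:66972555-66975357). Near Dnajb6, a co-chaperone of HSP70, they were 273, 3529 and 2616 bp (chr5:29697876-29701404).

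The remaining 4 of the 10 were at genes of varied function. An exonic member at Zscan22, a zinc finger gene, was called over 305, 2930 and 3253 bp with DMSO, curcuphenol and IFN-γ. Intronic members were called over 299, 3828 and 2723 bp at Rtn4ip1, which encodes a mitochondrial protein, and over 228, 3364 and 2055 bp at Avil, which encodes an actin-binding protein. A member in an intron of Mosmo, nearest to the TSS of Vwa3a, was called over 300, 3417 and 2710 bp. Curcuphenol gave the wider call at 8 of the 10 and IFN-γ at N4bp1 and Zscan22.

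The widest additions shared by both agents were at longer DMSO calls. At a member in an intron of Slc22a23 nearest to Psmg4, which encodes a proteasome assembly chaperone, 4763 bp were new with both (chr13:34188464-34197428). Its calls were 2906, 7883 and 8407 bp. At Itpk1, a kinase of inositol phosphates, 4650 bp were new with both (2402, 7152 and 7083 bp), at a member that covered the TSS. At Cxadr, a cell adhesion protein of tight junctions that also serves as a virus receptor, 3801 bp were new with both (2919, 6758 and 7043 bp). At Atf3, a stress-induced factor of the AP-1 and CREB families, 3796 bp were (chr1:191178711-191186174; 1966, 7112 and 6114 bp). The Atf3 TSS lay within the calls of all 3 lists.

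Others of the 10 widest additions were nearest to Rps24, Ptpn1, Tspan9, Chd7, Ankrd50 and Abr, with 3525 bp new with both at Rps24 and 3300 bp at Abr. Ptpn1 encodes the phosphatase PTP1B, which dephosphorylates JAK2, and its intronic member was called over 3158, 6701 and 6777 bp. Chd7 encodes a chromatin remodeller found at enhancers and was the nearest gene of 14 common regions, of which 4 were members. Dusp10, a phosphatase of the stress kinases p38 and JNK, was the nearest gene of 15, of which 4 were members. The 4 Dusp10 members were called over 527 to 1714 bp with DMSO, and over 1706 to 3652 bp under curcuphenol and 1881 to 4062 bp under IFN-γ, so that the lowest curcuphenol value was just below the highest DMSO value. Chd7 and Dusp10 were singled out after their counts were seen. Members had 1253 nearest genes in all, of which 1153 had 1 member.

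A total of 85 members (6.20%, 4.99 to 7.61) covered the TSS of a curated coding gene, against 31.4% of all common regions. At 44 of these 85 (51.8%, 40.7 to 62.7) the TSS was called with both agents and not with DMSO, among them Ccl5, Slc20a1, Slc1a7, Tmem40, Dnmbp and Loxl4. The same was seen in 345 of 8548 common regions that covered a coding TSS (4.04%). The DMSO call reached a TSS in 29 of the 85 (34.1%, 24.2 to 45.2), against 91.8% of the 8548. The rule chose narrow DMSO calls, which cover fewer positions, so neither comparison is a test. Slc20a1 encodes a phosphate transporter, and its member was called over 312 bp with DMSO, against 3983 bp with curcuphenol and 2787 bp under IFN-γ. Loxl4 encodes a lysyl oxidase that crosslinks collagen, and its calls were 303, 1094 and 1140 bp. The 250 bases before the start of these genes, from the RefSeq promoter table of GRCm38.p6, are given in the direction of transcription as examples of promoters outside the DMSO call. The Slc20a1 stretch (chr2:129206846-129207095, plus strand) was covered over 250 bp by the curcuphenol call and 73 bp by the IFN-γ call, and the Loxl4 stretch (chr19:42612807-42613056, minus strand) over 250 bp with each.
Slc20a1: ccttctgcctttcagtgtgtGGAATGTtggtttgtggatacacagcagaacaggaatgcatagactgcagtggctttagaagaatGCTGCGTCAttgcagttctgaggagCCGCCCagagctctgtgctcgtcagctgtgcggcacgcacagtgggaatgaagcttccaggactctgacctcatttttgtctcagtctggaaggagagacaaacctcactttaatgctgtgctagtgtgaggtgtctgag
Loxl4: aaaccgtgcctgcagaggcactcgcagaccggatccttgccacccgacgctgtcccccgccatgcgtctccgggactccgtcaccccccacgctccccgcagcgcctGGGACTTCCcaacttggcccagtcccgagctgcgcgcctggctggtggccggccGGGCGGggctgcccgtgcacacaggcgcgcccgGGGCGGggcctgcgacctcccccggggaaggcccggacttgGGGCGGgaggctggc
Capitals mark a TEAD motif (ACATTCC), an antioxidant response element and a GC box in Slc20a1, and an NF-κB motif and 3 GC boxes in Loxl4. Of 32851 RefSeq promoters of this length, 3.25% hold the TEAD motif, 10.2% the antioxidant element, 1.43% the NF-κB motif and 32.7% a GC box.

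The other coding TSS members named by the smaller ratio were wider with curcuphenol, except Loxl4. Tenm4, an adhesion protein of neurons, was called over 279, 4398 and 2186 bp with DMSO, curcuphenol and IFN-γ. The glutamate transporter gene Slc1a7 was called over 615, 6346 and 3704 bp. The AMP deaminase gene Ampd3 was called over 573, 6683 and 2692 bp, and Tmem40, a membrane protein gene, over 353, 3724 and 1888 bp. Zp1, an egg coat protein gene, Dnmbp, an activator of CDC42, and Itih1, a hyaluronan-binding serum protein gene, had 260, 309 and 533 bp with DMSO and between 1213 and 3030 bp with either agent. At Zp1 and Itih1 the TSS itself was called with curcuphenol only.

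At genes of the interferon pathway, the share of common regions that were members had intervals that held the overall share. Of 21 genes of IFN-γ signalling nearest to any common region, 6 had a member, and 6 of their 82 common regions (7.32%, 2.73 to 15.2) were members, beside 5.03% of all common regions. Of the 53 common regions of 37 interferon-stimulated genes 5 were members (9.43%, 3.13 to 20.7). None of the 25 common regions nearest to 20 genes of MHC class I and antigen processing was a member (exact 95% interval up to 13.7%). Over all common regions nearest to MHC class I and antigen processing genes, the median ratio to DMSO was 0.835 with curcuphenol and 1.75 with IFN-γ, beside 0.940 and 1.09 over all common regions.

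The immune members differed in which agent gave the wider call. In an intron of Cd274, which encodes the checkpoint ligand PD-L1, the DMSO call of 823 bp became 1647 bp with curcuphenol and 1675 bp under IFN-γ (chr19:29371292-29373133), just over the 2-fold limit. At Pml, which encodes the scaffold of PML nuclear bodies, an intronic call of 518 bp became 2292 bp with curcuphenol and 1057 bp under IFN-γ. Far upstream of Cd44, an adhesion receptor for hyaluronan, the calls were 248, 764 and 647 bp. At Csf1, the growth factor of macrophages, IFN-γ gave the wider call, with 527, 1858 and 3796 bp. In an intron of Il33, an alarmin of the interleukin 1 family, the calls were 336, 1228 and 1479 bp. Of 44 common regions nearest to chemokine and cytokine genes 4 were members (9.09%, 2.53 to 21.7), an interval that holds the 5.03% of all common regions.

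Among antiviral effectors, Mx1 and Mx2, dynamin-like GTPases that block virus replication, had members upstream of the gene. The Mx1 member, in an intron of Fam3b, was called over 258, 630 and 775 bp. The Mx2 member had 377, 766 and 2375 bp, and only 21.5% of its new base pairs were shared. At Ifitm1, a membrane protein that restricts virus entry, the calls were 309, 719 and 786 bp and 75 bp were new with both (6.56%). Here the IFN-γ call did not touch the DMSO call and met only the end of the curcuphenol call.

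Beyond the naming limit of 3 genes per list, further list genes had members, and some of the immune ones follow. Sp100, of the IFN-γ signalling list, had a member too. Oasl1, of the oligoadenylate synthetase family, had 488, 2007 and 2522 bp in an intron. Rsad2, which encodes viperin, an enzyme that inhibits viral replication, had 253, 1242 and 1997 bp. Socs1, which encodes a feedback inhibitor of JAK kinases, was the nearest gene of a member in an intron of Clec16a with 226, 927 and 1180 bp. Il6, which encodes an inflammatory cytokine, had 306, 3954 and 1210 bp in intergenic sequence. IFN-γ gave the wider call at Oasl1, Rsad2 and Socs1, and curcuphenol at Il6.

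Oxidative stress and xenobiotic genes had 4 members among 42 common regions (9.52%, 2.66 to 22.6, an interval that holds the overall 5.03%). Cyp1a1 encodes a cytochrome P450 induced through the aryl hydrocarbon receptor, and its member (chr9:57686288-57689861) was called over 512, 3574 and 1292 bp, with the TSS called with curcuphenol only. In an intron of Ahr, the gene of that receptor, the calls were 439, 1297 and 1000 bp. Upstream of Prdx1, a peroxiredoxin, they were 1964, 4402 and 4945 bp, and at Srxn1, which encodes sulfiredoxin, the enzyme that restores peroxiredoxins, 2127, 6203 and 4556 bp.

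At growth factor receptors and growth arrest genes the member shares were near the 5.03% of all common regions. Of 88 common regions nearest to receptor tyrosine kinases and ligands 4 were members (4.55%, 1.25 to 11.2), at Egfr (449, 1243 and 952 bp), Ephb2 (302, 1066 and 1280 bp), Fgfr1 (469, 1881 and 1328 bp) and Vegfa. Of 74 regions of the FOXO and growth arrest list 5 were (6.76%, 2.23 to 15.1). They included an intronic member of Cat, the catalase gene, with 280, 967 and 867 bp, and regions nearest to Foxo6, Gadd45a, Klf2 and Klf4. At Foxo6 (433, 1352 and 2106 bp) the curcuphenol call did not touch the DMSO call.

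Other lists had few members or none. Members were nearest to Nfkb1, the gene of an NF-κB subunit (1293, 4794 and 2872 bp), and Smad3, a transducer of TGF-β (323, 1987 and 1305 bp). They were 1 of 37 common regions of the NF-κB list (2.70%) and 1 of 78 of the TGF-β list (1.28%), beside 5.03% of all common regions. Other members were nearest to Nr3c1, the glucocorticoid receptor gene (472, 1074 and 958 bp), and Pparg, a lipid-sensing nuclear receptor (607, 1341 and 1281 bp). The nuclear receptor list had 2 members among 78 common regions (2.56%, 0.312 to 8.96). The Nr3c1 member lay in an intron of Arhgap26, 163901 bp from the Nr3c1 TSS. For the matrix genes the count was 2 of 111 regions (1.80%, 0.219 to 6.36). They were nearest to Timp3, an inhibitor of metalloproteinases (352, 2186 and 1770 bp), and Thbs2, a thrombospondin (408, 863 and 1485 bp). The Timp3 member lay in an intron of Syn3, and the Thbs2 member lay 117792 bp from the Thbs2 TSS. The acetyltransferase genes Kat6b and Kat7 had 1 member each, which made 2 of 52 common regions of the histone acetylation list (3.85%, 0.469 to 13.2). Of the WNT genes the antagonist Dkk2 had 2 members and the co-receptor Lrp6 had 1, or 3 of 72 common regions (4.17%, 0.868 to 11.7). The Kat6b member lay in an intron of Adk, 161570 bp from the Kat6b TSS. The Dkk2 members lay 167346 and 77924 bp from the Dkk2 TSS. No member was found among 53 common regions of YAP and TEAD genes (up to 6.72%), 29 of the unfolded protein response (up to 11.9%) or 45 of cell death (up to 7.87%). Over the 19 lists together, 40 of 1052 common regions were members (3.80%, 2.73 to 5.14), and 39 of 385 genes had one (10.1%), against 9.35% of 13408 genes nearest to any common region.

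**Figure D5:**
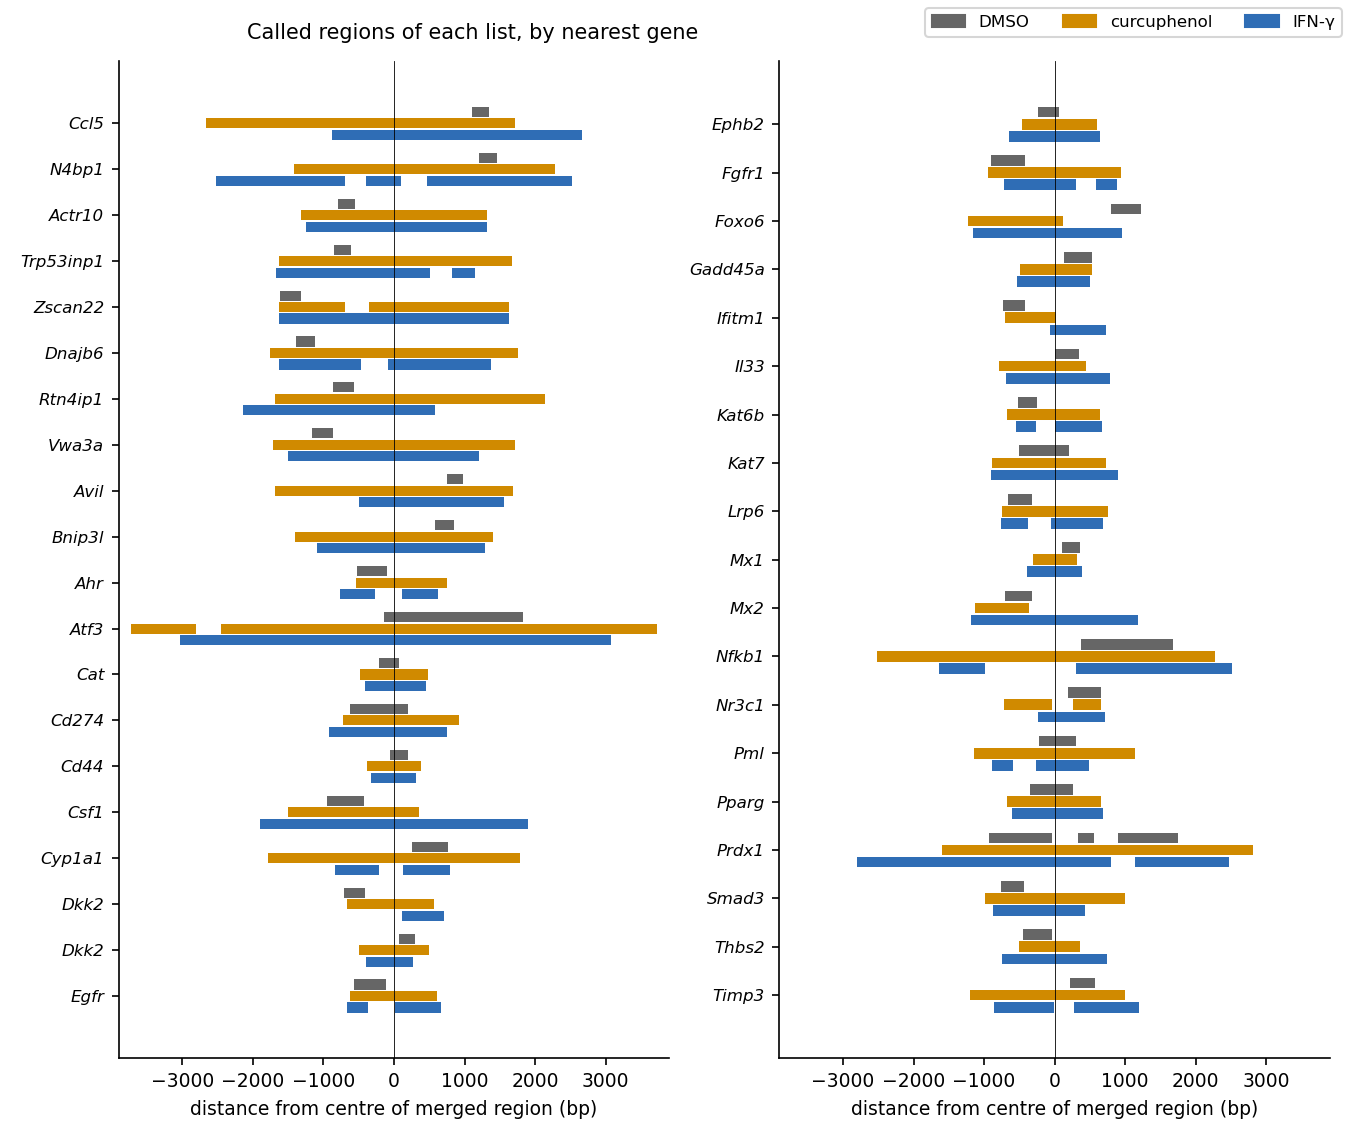
Called regions with DMSO (grey), curcuphenol (orange) and IFN-γ (blue) as bars along the distance in bp from the centre of the merged region, for the 10 members with the largest smaller ratio and the named members of the gene lists, labelled by nearest gene. The DMSO bars are short and often lie to 1 side (Ccl5, N4bp1), the treated bars overlap each other along much of their length at most members, and at Ifitm1 they share 75 bp outside the DMSO call.

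At the limit itself, the members just inside were 1700067G17Rik (434, 1745 and 868 bp with DMSO, curcuphenol and IFN-γ), Agpat3 (398, 894 and 796 bp) and 4933440J02Rik (1812, 3624 and 3864 bp). The common regions just outside were nearest to Tmem140 (927, 1853 and 2484 bp), Psmb7 (761, 1638 and 1521 bp) and Ptchd4 (514, 1027 and 1292 bp). Regions on either side of the limit differed by a few base pairs.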

How the data were processed

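H3K27ac ChIPseq of A9 cells was made by the authors with 1 H3K27ac and 1 input library for each of 3 treatments. Reads were aligned to mm10 with BWA (0.7.17 in the submitters' processing notes) and regions called with MACS2 (2.1.2) against the input of the same treatment. The deposited values used here are start and end positions, with no score, ratio or count, so depth is unknown and only counting error could be given. From these positions, Python 3.11.15 (numpy 2.4.6, pandas 2.3.3, scipy 1.17.1, pysam 0.24.0, matplotlib 3.10.9) merged the lists and counted base pairs. The merging was checked on simulated data. Curated RefSeq transcripts of GRCm38.p6 gave classes at region centres and the nearest TSS, and 14 motifs were searched on both strands. Genes named are the nearest genes of the 10 members with the largest smaller ratio, the 10 with the most base pairs new with both, list genes (up to 3 per list), 10 members over a coding TSS, and the 3 on each side of the limit. Some list genes beyond the first 3 of a list are named as well. Members, lists and motifs were chosen with earlier results of these data known. The subsets by position and width in which AP-1 was compared were chosen after the data were seen. Alternatives changed the fold limit, merging, scaling, promoter, annotation and window.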

Additional observations from a re-analysis of the deposited data

How the results depend on the processing

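With a 1.5-fold limit there were 2785 members and with a 3-fold limit 527, of which 3.99% and 1.33% were at promoters and which were nearest to 73 and 17 list genes. At 1.5-fold, 89.7% were in introns or intergenic sequence and 42.7% held an AP-1 match. A minimum of 500 bp with DMSO left 466 members, nearest to 11 list genes, with 3.86% at promoters, 65.6% of new base pairs shared, and AP-1 matches in 42.3% and IRF matches in 13.5%. With the widest called region of each list only, the shares were 4.42% (promoters), 89.2% (introns or intergenic) and 63.1% (shared new base pairs), and with merging across gaps of up to 500 bp 58.4% of new base pairs were shared. Scaling the base pairs by the total of each list left 1081 members, all among the 1370.

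The promoter share was 8.69% with promoters reaching 2000 bp to each side of a TSS, 7.81% with any overlap and 5.62% with all RefSeq transcripts, beside 87.1%, 87.8% and 84.8% in introns or intergenic sequence, and all RefSeq transcripts left 25 list genes. In windows of 1000 bp, matches were found in 64.4% (AP-1), 29.6% (GAS) and 28.5% (IRF) of members, and in whole regions in 77.2%, 48.3% and 48.5%, since longer windows hold more matches. The other 47 values stayed within the 95% interval of the reported share or within 1.5 times the reported count. The median GC content stayed between 46.8% and 47.6%. The alternative values describe members alone, without matching shares of all common regions. Whether the contrasts with common regions hold under these settings was therefore not examined. Leaving out a replicate was not possible with 1 library per treatment. No paired analysis was possible because each treatment has 1 library.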
